A study of Mus musculus with 8 samples.

Results

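The replication-dependent histone cluster on mouse chromosome 13 was described through the accessible regions measured in it by ATAC-seq, in which the Tn5 transposase tags exposed DNA. The members were all peaks of 4 peak lists that overlapped chr13:21750000-22150000 (part 1, 400 kb) or chr13:23550000-23900000 (part 2, 350 kb) on build mm9, and the 1.4 Mb between them served as the comparison. This gave 298 of 154178 peaks, which merged into 88 of 45915 regions, 45 in part 1 and 43 in part 2. The cells were NIH3T3, an immortalised mouse fibroblast line grown in DMEM with newborn calf serum, cultured for 24 h on G128 or on G2, with 2 libraries in each group. All libraries share this line and medium, and the labels name no other agent or genotype. The growth text also describes a medium for HeLa cells, but each of these libraries is labelled NIH3T3. The labels do not say what G128 and G2 are, and the title of the series speaks of hydrogels of polyvinyl alcohol and gelatin, cell adhesion and chromatin. The labels do not state whether replicates are separate cultures; if they are not, the p-values below measure a spread that may be technical. The fibroblast markers were not checked, because no annotation of mm9 was used here.

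Replication-dependent histone genes encode the core histones H2A, H2B, H3 and H4, which form the nucleosome, and the linker histone H1, which binds DNA where it enters and leaves the nucleosome. They are transcribed mainly in S phase, their mRNAs end in a stem-loop in place of a poly(A) tail, and in mammals most of them lie in 1 large cluster beside tRNA genes. Their promoters are short, and many H2A and H2B genes lie head to head and share the DNA between their starts.

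The promoters of the first gene of each class in chromosome order are shown as examples of the DNA before histone genes. Each is the 150 bases before the annotated start in RefSeq on GRCm38.p6, on the gene's own strand, with capitals marking TATAAA (the TATA box), CCAAT, ATTTGCAT (the octamer) and GGGCGG (the GC box) on either strand, so that ATTGG is CCAAT and CCGCCC is GGGCGG on the other strand. None of the 5 stretches holds ATTTGCAT, and H2ac13, H2bc13 and H4c11 hold no TATAAA in these bases.
H1f5, linker histone, minus strand: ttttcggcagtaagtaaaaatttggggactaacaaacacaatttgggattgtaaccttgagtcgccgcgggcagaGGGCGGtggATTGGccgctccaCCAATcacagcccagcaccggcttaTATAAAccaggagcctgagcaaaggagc
H2ac13, H2A, plus strand: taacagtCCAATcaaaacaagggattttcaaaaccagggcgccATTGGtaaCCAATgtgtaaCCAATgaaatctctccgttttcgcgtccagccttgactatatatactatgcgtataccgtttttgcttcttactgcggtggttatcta
H2bc13, H2B, minus strand: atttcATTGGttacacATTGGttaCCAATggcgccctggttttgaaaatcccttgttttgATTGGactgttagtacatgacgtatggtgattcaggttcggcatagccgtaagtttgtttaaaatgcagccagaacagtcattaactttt
H3c10, H3, plus strand: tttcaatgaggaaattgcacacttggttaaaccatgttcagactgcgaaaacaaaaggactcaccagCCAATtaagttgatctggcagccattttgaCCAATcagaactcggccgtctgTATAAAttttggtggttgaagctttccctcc
H4c11, H4, plus strand: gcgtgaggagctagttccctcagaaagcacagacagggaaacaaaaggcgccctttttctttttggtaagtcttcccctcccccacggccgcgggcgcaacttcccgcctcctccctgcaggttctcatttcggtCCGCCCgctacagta
H2bc13 and H2ac13 are neighbours on opposite strands, and 72 of the 150 bases shown for each are the same DNA read from opposite ends.

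TATAAA and CCAAT were found in most promoters of the histone genes, and ATTTGCAT and GGGCGG in fewer. The RefSeq table held 54 protein-coding histone genes of the cluster (6 of H1, 13 of H2A, 15 of H2B, 9 of H3 and 11 of H4), of which 51 had a promoter entry, with 52 promoters in all. In windows of 250 bases before to 50 after the start, searched on both strands, TATAAA was found in 59.6% of histone promoters and in 13.6% of all 32851 promoters. CCAAT was found in 84.6% against 37.4%, in every promoter of the H1, H2A, H2B and H3 classes and in 3 of 11 of H4. The octamer ATTTGCAT was found in 21.2% against 1.74%, in 5 of 13 H2A and 6 of 15 H2B promoters and in none of the others. GGGCGG was found in 36.5% against 35.7%, with 8 of 11 H4 promoters, 4 of 6 of H1 and none of 7 of H3. Matches of different motifs can overlap at their ends, and a match is a description of letters, not a binding site. Of 15 pairs of divergent neighbours, 10 shared promoter sequence, and all 10 were pairs of an H2A and an H2B gene. The windows of each such pair shared 220 to 279 bases, so that 1 site can be counted in both promoters. The H2A and H2B shares above are therefore not of separate stretches of DNA.

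The order of genes in the same RefSeq table gives the layout of the cluster, although genes were not placed on the peaks because the builds differ. Leaving other kinds of gene aside, the order began with 19 histone genes or pseudogenes, from H2bc13 to H4bc24. The latter is listed as an H2B gene by its synonym. It ran on through 31 tRNA genes to 5 histone genes or pseudogenes (H2ac12 to H2bc11) and 1 tRNA gene. Then came 75 genes and pseudogenes of the Vmn1r family, which encode vomeronasal receptors, followed by 45 tRNA genes and a last run of histone genes that ended at H2ac1. There were 23 protein-coding histone genes before the Vmn1r genes and 31 after them. Each side also held 1 histone pseudogene, which the runs include.

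The heights used below come from column 8 of the peak lists, the −log10 p-value at a peak's summit. It was turned into the number of overlapping intervals at the summit divided by the library's mean background, called the summit over the background. The background mean was 1.05 and 1.41 intervals for G128 replicates 1 and 2, and 1.099 and 1.37 for those of G2, so that replicate 1 was the shallower library of each group. The lists held 32540 and 37695 peaks on G128 and 42358 and 41585 on G2.

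Both parts were densely accessible, and their regions were mostly found in every library. Of the 88 regions, 60 (68.2%, with a 95% Wilson interval from 57.9 to 77.0%) were present in all 4 libraries and are called shared, against 60.5% of all regions. Windows of the same lengths along the genome rarely held as many: 48 of 6608 windows of 400 kb (0.726%) held 45 regions or more, and 38 of 7550 windows of 350 kb (0.503%) held 43 or more. The median window held 3 and 2 regions. In 45 of the 60 shared regions the summits of the 4 libraries lay within 100 bp of each other. The share over all shared regions was slightly higher, at 77.1% (21415 of 27768).

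The share of wide regions varied along the cluster, and several tiles held wide and narrow regions side by side. In part 1 the regions between 21.8 and 21.95 Mb were mostly wide: 14 of the 21 regions in these 3 tiles of 50 kb were at least 500 bp, and 17 were shared. Between 21.95 and 22.1 Mb 1 of 14 regions was that wide and 7 were shared, and the tile at 21.95 Mb held a single region, found in 1 library. The last tile, from 22.1 Mb, held 4 wide regions of 10 and 5 under 250 bp. Part 2 began with 2 unshared narrow regions in its first tile. The next tile, up to 23.65 Mb, was the fullest and the most mixed, with 17 regions, 7 of at least 500 bp and 9 under 250 bp, and from 23.65 to 23.9 Mb 17 of its 24 regions were at least 500 bp wide. No region of part 1 lay before 21.802 Mb, and the last region of part 2 ended at 23855534.

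**Figure D1:**
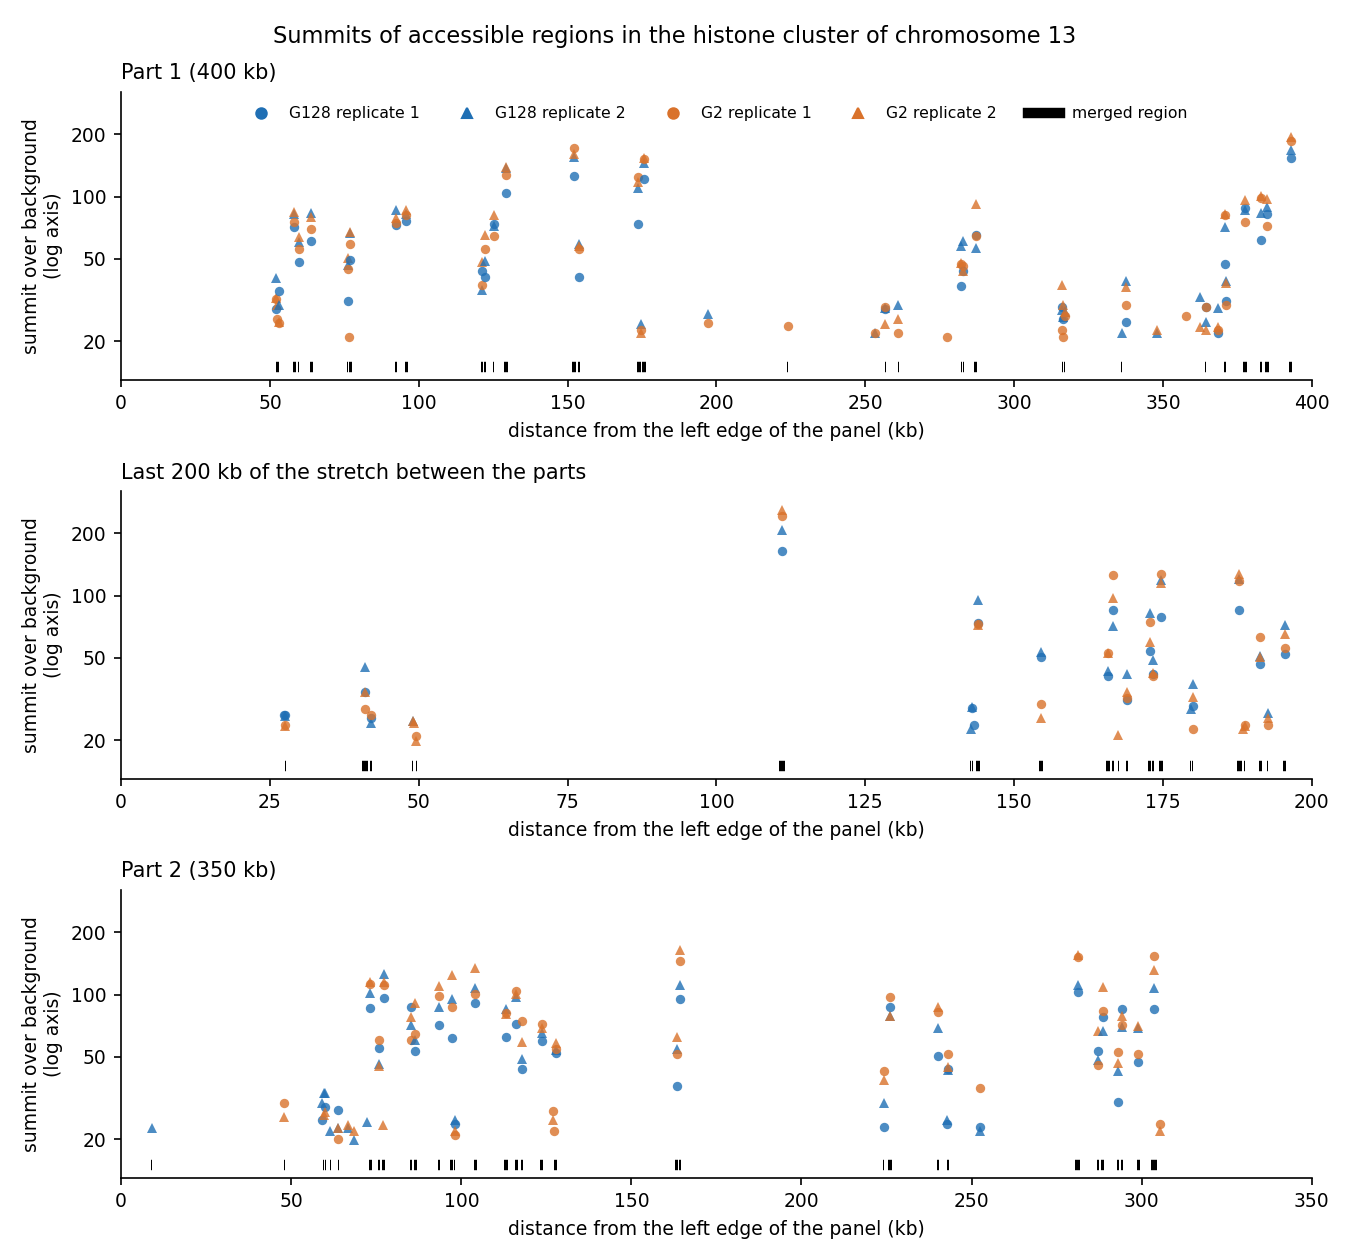
Summit over the background (log axis) of every region in each library against the distance in kb from the left edge of each panel, with circles for replicate 1, triangles for replicate 2 and black bars for merged regions. The upper panel is part 1, the lower one part 2, and the middle one the last 200 kb of the stretch between them, and the high regions of part 1 lie in its left portion and at its right end, with low ones between.

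The strongest region of part 1 was also its last, chr13:22142496-22143337, which is 842 bp wide. Its summit over the background was 153 and 168 on G128 and 186 and 193 on G2. The summits of the 4 libraries lay within 1 bp, and both G2 libraries stood above both G128 libraries. The next was chr13:21901455-21902742, 1288 bp wide, with 126 and 154 on G128 and 171 and 161 on G2. The widest region of part 1, chr13:21924936-21926242, measured 1307 bp, with 121 and 145 on G128 and 151 and 154 on G2. In these regions too the groups did not overlap. The fourth, chr13:21878697-21879856, had 104 and 137 on G128 and 127 and 140 on G2, and here the groups overlapped. The fifth, chr13:21923365-21924239, had 74.0 and 111 on G128 and 124 and 118 on G2, without overlap. Both G2 libraries were above both G128 libraries in 67.6% of all shared regions and in 21.9% of those in part 1. The log2 changes, centred on each library's median, were -0.09, -0.08, -0.13, -0.17 and 0.08 in the order named (SE 0.12 to 0.14). Even the strongest region was not extreme in its list: the highest peak of the cluster lay at the percentile 89.6, 90.04, 89.7 and 89.7 of the 4 lists.

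In part 2 the strongest region was chr13:23830521-23832007, 1487 bp wide. Its summit over the background was 103 and 111 on G128 and 151 and 156 on G2, and its centred log2 change was 0.18 ± 0.13 (SE; limma adjusted p = 0.513). The region chr13:23713928-23714577 had 94.8 and 111 on G128 and 145 and 164 on G2. The widest region of the whole cluster, chr13:23852620-23854420, measured 1801 bp, with 85.4 and 108 on G128 and 153 and 132 on G2. In these 3 regions both G2 libraries were above both G128 libraries, as they were in 67.6% of all shared regions. The region chr13:23627008-23627699 had 95.8 and 125 on G128 and 111 and 115 on G2, and chr13:23653730-23654579 had 91.1 and 107 on G128 and 100 and 134 on G2. In this last pair the groups overlapped.

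Most shared regions were at least 500 bp wide, and unshared regions were narrow and low. Of the 60 shared regions, 43 (71.7%) were at least 500 bp wide and 16 (26.7%) at least 1000 bp, where 62.4% and 22.3% of all shared regions were. Of the 28 regions found in fewer than 4 libraries none reached 500 bp, and 27 were under 250 bp. Unshared regions were also narrow over all regions, with median widths from 142 bp (1 library) to 248 bp (3 libraries). The median width of shared regions was 583 bp in part 1 and 695 bp in part 2, against 627 bp for all 27768 shared regions.

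**Figure D2:**
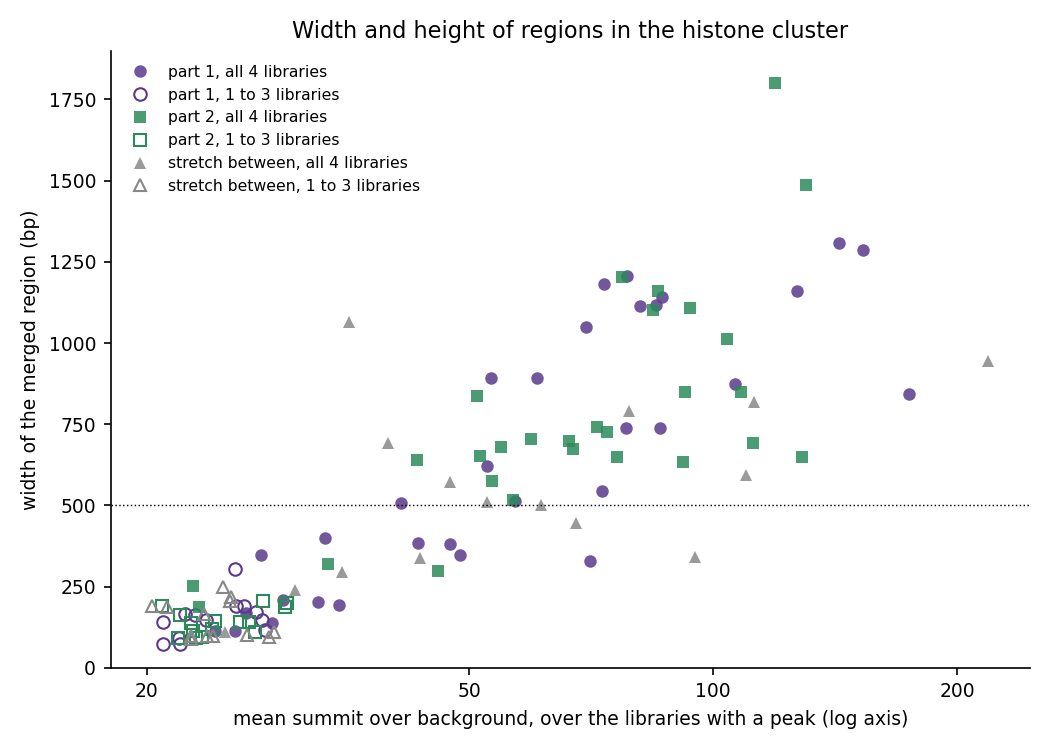
Width of each merged region in bp against its mean summit over the background (log axis), over the libraries with a peak; filled symbols are regions of all 4 libraries, open symbols regions of 1 to 3 libraries, and the dotted line marks 500 bp. All open symbols lie below 500 bp, and the widest region, of 1801 bp, belongs to part 2.

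Neighbouring regions lay from 104 bp to 59.5 kb apart. The closest neighbours of part 1, chr13:22066091-22066299 and chr13:22066404-22066515, were separated by 104 bp and both were shared. The widest gap of part 1 was 29.2 kb, from chr13:21973853-21973999 to chr13:22003155-22003247, which were found in 1 and in 2 libraries. In part 2 the closest were chr13:23792789-23792933 and chr13:23793047-23793343, with 113 bp between them. Its widest gap was 59.5 kb, between shared regions at 23.714 and 23.774 Mb.

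The number of member peaks was about the same on G2 as on G128, although the G2 lists were longer. The 2 parts held 68 and 79 peaks on G128 and 76 and 75 on G2, and the groups overlapped. The means were 73.5 ± 7.78 and 75.5 ± 0.707 (SD, n = 2 each), a ratio of 1.03 (two-sided exact permutation test, p = 1). With 2 libraries against 2, 0.333 is the smallest p possible. The ratio was below 1 (0.831) when the 32540 strongest peaks of each list were used, and 0.956 without G128 replicate 1. Part 1 alone held 34 and 40 peaks on G128 and 42 and 38 on G2, and part 2 held 34 and 39 on G128 and 34 and 37 on G2. Within the shallower libraries the count went from 68 on G128 to 76 on G2, and within the deeper ones from 79 to 75.

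Spacing, the distance between neighbouring summits within a part, did not separate the groups. Its median over both parts was 4.06 and 3.62 kb on G128 and 4.18 and 3.65 kb on G2. The means were 3.84 ± 0.312 kb and 3.92 ± 0.375 kb (SD, n = 2 each), a ratio of 1.02 (exact permutation test, p = 0.667). The shallower library of each group had the wider spacing, and the groups overlapped. The direction turned in 4 alternatives: gaps between peak ends gave 0.972, peaks of at least 250 bp gave 0.939, and leaving out G128 replicate 2 or G2 replicate 1 gave 0.965 and 0.951. In the whole lists the median spacing was 15.6 and 13.05 kb on G128 and 12.5 and 12.8 kb on G2, so that summits of the cluster were closer together in all 4 libraries (sign-flip permutation test over 4 libraries, exact p = 0.125, the smallest it can give).

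Member peaks of part 2 were wider in both G2 libraries than in either G128 library, and so were peaks of the stretch between. In part 1 the groups overlapped. The median width in part 2 was 569.5 and 572 bp on G128 and 608.5 and 641 bp on G2, which did not overlap (exact permutation p = 0.333, the smallest possible). In part 1 it was 470 and 390 bp on G128 and 355.5 and 440.5 bp on G2, which overlapped (exact permutation p = 0.667). Over both parts the medians were 539 and 513 bp on G128 and 545 and 575 bp on G2, with means of 526 ± 18.4 and 560 ± 21.2 bp (SD, n = 2 each) and a ratio of 1.06 (exact permutation p = 0.333). The ratio was 0.914 among peaks between the percentiles 60 and 90 of column 8. In the stretch between the parts the median width was 305 and 312 bp on G128 and 345 and 334 bp on G2. There the groups did not overlap either (exact permutation p = 0.333, the smallest possible). In the whole lists the median width was 367 and 368 bp on G128 and 351 and 393 bp on G2. The G2 minus G128 difference was larger in part 2 than in part 1 by 86.0 bp (exact permutation p = 0.333).

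Column 8 showed the same split between the parts, and over all peaks of the stretch between it went the other way. In part 2 its median was 5.84 and 5.87 on G128 and 6.30 and 6.38 on G2, which corresponds to summits of 53.1 and 53.8 against 65.0 and 67.2 times the background. The G2 libraries stood above the G128 libraries (exact permutation p = 0.333, the smallest possible). In part 1 the median of column 8 was 5.50 and 5.82 on G128 and 5.50 and 5.88 on G2, and the groups overlapped. Over both parts it was 5.76 and 5.87 on G128 and 5.94 and 6.25 on G2, with means of 5.81 ± 0.0794 and 6.09 ± 0.220 (SD, n = 2 each; exact permutation p = 0.333). The difference of 0.280 was 0.124 without G2 replicate 2 and 0.436 without G2 replicate 1. In the stretch between the parts the median was 5.29 and 5.49 on G128 and 5.27 and 4.91 on G2, lower on G2 and without overlap (exact permutation p = 0.333). As percentiles within the lists the groups of the stretch overlapped. In the whole lists the median was 5.41 and 5.35 on G128 and 5.36 and 5.38 on G2. Among shared regions the median of column 8 in part 2 was 6.14 and 6.43 on G128 and 6.58 and 6.76 on G2. Over all 27768 of them it was 5.72 and 6.04 on G128 and 6.38 and 6.43 on G2, so that G2 was also above G128 there. Shared regions of part 1 had 5.61 and 6.14 on G128 and 6.01 and 6.34 on G2, and the groups overlapped. Those of the stretch had 5.72 and 5.84 on G128 and 5.94 and 5.82 on G2. These overlapped too, so the lower values on G2 were not seen among shared regions of the stretch. Over all peaks, the G2 minus G128 difference was larger in part 2 than in part 1 by 0.460 (p = 0.333 by an exact permutation test). Among shared regions the mean of the G2 medians was above that of G128 in both parts, and this contrast was not tested.

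**Figure D3:**
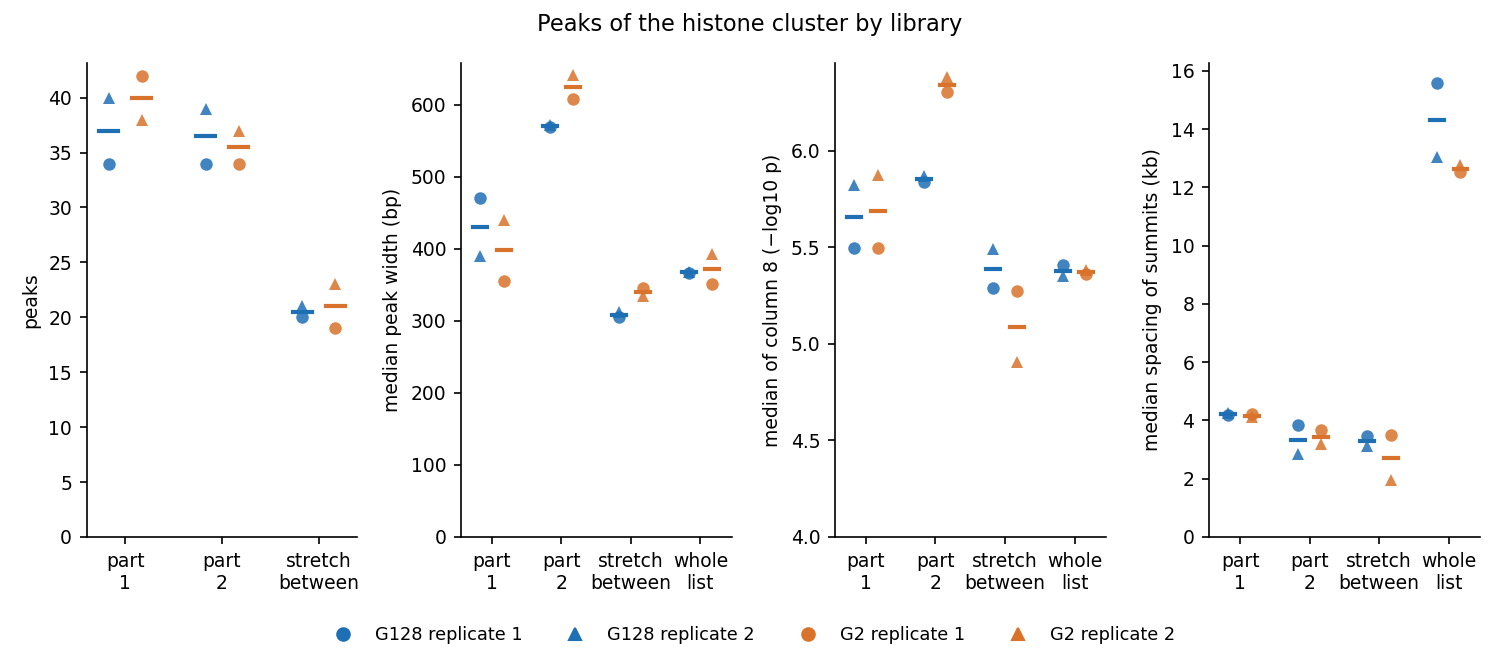
Number of peaks, median peak width in bp, median of column 8 (−log10 p, axis from 4) and median spacing of summits in kb, in part 1, part 2, the stretch between and the whole list; circles are replicate 1, triangles replicate 2 and bars group means. In part 2 the G2 libraries lie above the G128 libraries in width (608.5 and 641 against 569.5 and 572 bp) and column 8, and in part 1 the groups overlap. In the stretch between, G2 lies above in width (345 and 334 against 305 and 312 bp) and below in column 8 (5.27 and 4.91 against 5.29 and 5.49).

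A few narrow regions were found in a single group. Of the 88 regions 4 (4.55%) were G2-only, with peaks in both libraries on G2 and none on G128, where 8.32% of all regions were. Another 2 (2.27%) were G128-only, the reverse, where 0.37% of all regions were. With so few regions these counts moved with the settings: without peaks under 200 bp both were 0, and with the 32540 strongest peaks of each list there were 0 G2-only and 7 G128-only regions. Leaving out a library drops 1 of the conditions, so the counts can then only stay or rise. The count of G2-only regions was 9 without G2 replicate 2 and 7 without G128 replicate 2. The count of G128-only regions was 6 without G128 replicate 1. The G2-only region of part 1 was chr13:21802413-21802559, whose summits over the background were 25.5 and 30.0, and it lay 144 bp from a shared region. The G2-only regions of part 2 were chr13:23597912-23598117 (30.0 and 25.6), chr13:23676872-23677011 (27.3 and 24.8) and chr13:23855421-23855534 (23.7 and 21.9). The second of them lay 341 bp and the last 1000 bp from a shared region. The G128-only regions were chr13:23609071-23609179 (24.7 and 29.8) and chr13:23792789-23792933 (23.7 and 24.8), and the latter lay 113 bp from a shared region. All 6 regions were at most 206 bp wide, and their summits lay between the percentiles 7.16 and 31.1 of their lists, so that each was a weak peak.

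In most shared regions of the cluster the summits of the groups overlapped. Both G2 libraries were above both G128 libraries in the summit over the background in 22 of 60 regions (36.7%), where 67.6% of all shared regions were. Both were below in 3 of 60 (5.0%), where 2.79% were. These were the regions at 21.803 and 23.614 Mb, described below, and chr13:23647959-23648211, which was picked out after its values were seen and had 23.7 and 24.8 on G128 and 20.9 and 21.9 on G2. They overlapped in the remaining 35 (58.3%), where 29.6% of all shared regions did. Part 2 held 15 regions of 28 (53.6%) with both G2 libraries above, and part 1 held 7 of 32 (21.9%).

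The shift of all shared regions, a difference of 0.33 in the median log2 summit between G2 and G128, was therefore removed by centring each library on its median, and single regions were tested with limma. No member was called at an adjusted p of 0.05 in either direction, where 0.601% of all 27768 shared regions were called higher on G2 and 0.864% lower. At an unadjusted p under 0.05 none of the 60 was higher and 14 were lower, where 7.39% and 7.61% of all shared regions were. The median log2 change over the 60 regions was -0.19, -0.25 in part 1 and -0.07 in part 2, against 0.01 over all shared regions and 0.02 over the other shared regions of chromosome 13. The change was above 0 in 17 of 60 members (28.3%) and in 52.2% of all shared regions. Without centring the median change was 0.14, against 0.34 over all shared regions, and 5 of 60 members (8.33%) were called higher, where 26.6% of all shared regions were. The sign of the members' median thus rests on the scaling, and the median lay below that of all shared regions on both scales. The 5 members, at 23.714, 23.774, 23.79, 23.831 and 23.853 Mb, all lay in part 2. Leaving out G128 replicate 2 gave 3 members called lower on G2, at 21.803, 23.635 and 23.844 Mb, where 1.56% of all shared regions were called lower.

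Width and height were followed beside this change, and their part in it was not tested. The 43 members of at least 500 bp had a median change of -0.13 and the 17 narrower ones -0.38. Among all other shared regions the medians were 0.05 and -0.08 for the same widths, and -0.0042 for the 23796 regions whose mean summit lay in the range of the members.

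The largest changes downwards did not pass the adjusted test. At chr13:21802835-21802973, 139 bp wide, the summit over the background was 35.1 and 29.8 on G128 and 24.6 and 24.8 on G2. The groups did not overlap, and the centred log2 change was -0.72 ± 0.22 (SE; limma adjusted p = 0.078). At chr13:22032670-22033015 it was 43.6 and 60.9 on G128 and 46.4 and 43.8 on G2, a centred change of -0.52 ± 0.18 (limma adjusted p = 0.142). In part 2 the region chr13:23613725-23613911 had 27.5 and 22.7 on G128 and 20.01 and 22.6 on G2, a change of -0.56 ± 0.23 (limma adjusted p = 0.217). The region chr13:23634803-23635529 had 87.3 and 71.6 on G128 and 60.04 and 77.4 on G2, a change of -0.54 ± 0.17 (limma adjusted p = 0.088). In the regions at 22.033 and 23.635 Mb the uncentred summits of the groups overlapped.

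The largest changes upwards did not pass it either. At chr13:23774044-23774362, 319 bp wide, the summit over the background was 22.8 and 29.8 on G128 and 42.8 and 38.7 on G2. Both G2 libraries were above, and the centred log2 change was 0.31 ± 0.20 (SE; limma adjusted p = 0.487). The region at 23.714 Mb, already named for its height, had a change of 0.25 ± 0.13 (limma adjusted p = 0.348). In part 1 the largest was 0.16 ± 0.16 at chr13:22120586-22120915 (limma adjusted p = 0.675), whose summit was 47.4 and 70.8 on G128 and 81.0 and 82.6 on G2. The next was 0.13 ± 0.15 at chr13:22132666-22133403 (limma adjusted p = 0.713), with 61.7 and 83.6 on G128 and 98.2 and 100.1 on G2.

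**Figure D4:**
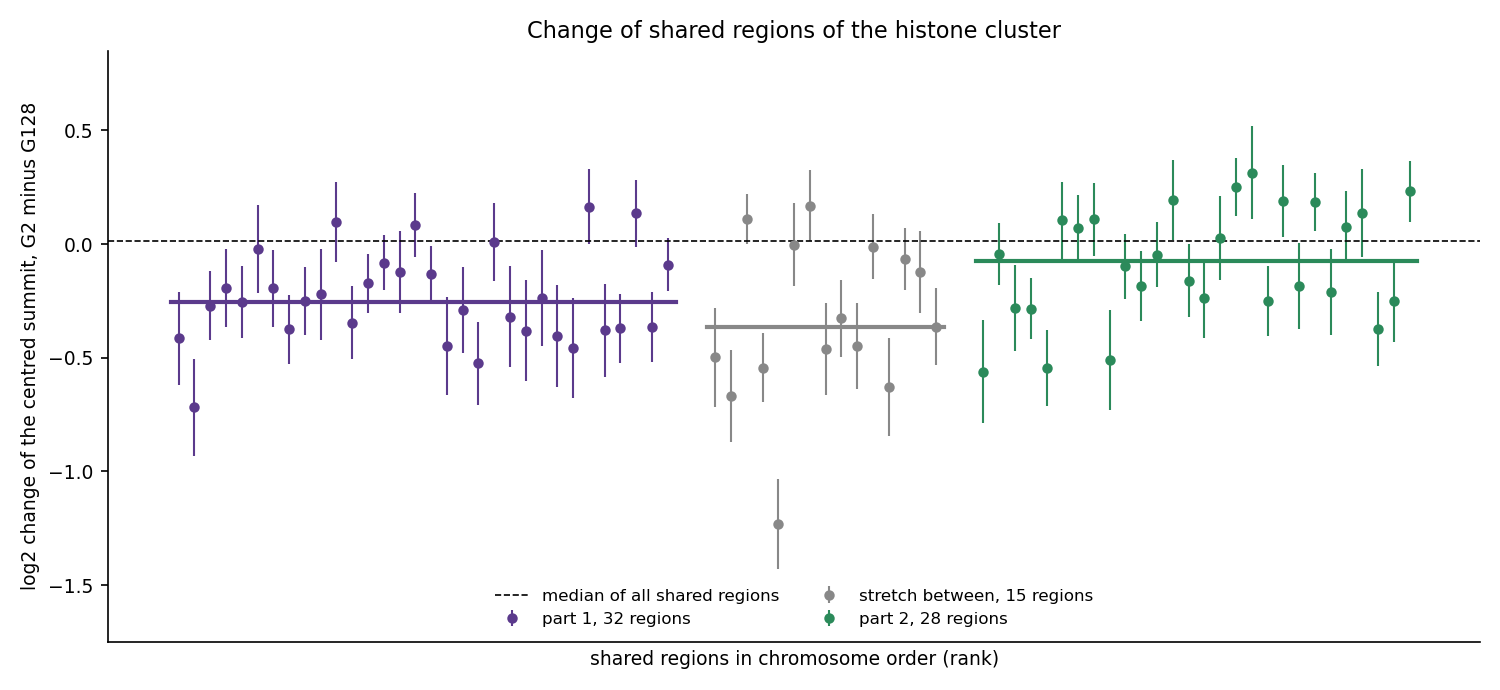
Centred log2 change of the summit (G2 minus G128) with its standard error from limma for each shared region in chromosome order; solid lines are the medians of part 1, the stretch between and part 2, and the dashed line is the median of all shared regions. The median is -0.25 in part 1 and -0.07 in part 2, and the lowest point, at -1.23, lies in the stretch between.

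The stretch between the parts was empty over most of its length. No list had a peak between 22143338 and 23377269, a gap of 1.23 Mb that took up 87.7% of the stretch. Of 45894 gaps between neighbouring regions of the genome 320 (0.697%) were as long, 10 of them on chromosome 13. All 28 regions of the stretch lay in its last 173 kb, next to part 2. Over the whole stretch the peak density was 1.48 ± 0.122 per 100 kb (SD over 4 libraries), against 9.93 ± 0.621 in the parts, 6.73 ± 0.629 times as many and higher in 4 of 4 libraries (two-sided sign-flip permutation test, exact p = 0.125, the smallest it can give). Within the occupied end, cut to begin at its first region, the density was 12.0 ± 0.989 per 100 kb. That was above the parts in 4 of 4 libraries (sign-flip permutation test, exact p = 0.125), a ratio of 0.830. The parts kept empty margins, 51.9 kb before the first region of part 1 and 44.5 kb after the last of part 2. These densities therefore cannot say which was the denser. Peaks covered 5.50 ± 0.330% of the parts and 4.51 ± 0.504% of the end, more in the parts in 4 of 4 libraries.

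Peaks of the histone parts had a larger median width, column 8 and spacing than those of the stretch's occupied end. The median width was 543 ± 25.5 bp in the parts and 324 ± 18.7 bp in the stretch (SD over 4 libraries), higher in 4 of 4. The median of column 8 was 5.95 ± 0.211 against 5.24 ± 0.243, higher in 4 of 4. The median spacing was 3.88 ± 0.285 kb against 3.001 ± 0.728 kb, wider in 4 of 4. The upper quartile of spacing went the other way, with 8.73, 8.21, 9.30 and 7.81 kb in the parts and 9.40, 8.58, 10.3 and 7.94 kb in the stretch, and was not tested. Each of the 3 median differences had an exact p of 0.125 in the sign-flip permutation test, the smallest it can give. Widths were also compared at like height. Between the percentiles 60 and 90 of column 8, member peaks had a median width of 894.5, 814, 726 and 836 bp in the 4 libraries and all other peaks of the lists 627, 673, 634 and 718 bp. The means were 818 ± 69.9 and 663 ± 41.9 bp, with members wider in 4 of 4 libraries (exact sign-flip permutation p = 0.125). Part 1 alone had 1046.5, 861, 865 and 887 bp. Part 2 alone had 728.5, 704, 663.5 and 704 bp, nearer to the other peaks and below them in G2 replicate 2.

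Part 2 had a larger median width and column 8 and a smaller median spacing than part 1 in all 4 libraries. It had the smaller median width, however, among peaks between the percentiles 60 and 90 of column 8. Its peaks had a median width of 598 ± 33.9 bp against 414 ± 51.1 bp (SD over 4 libraries) and a median of column 8 of 6.10 ± 0.283 against 5.67 ± 0.204, both higher in 4 of 4. Its median spacing of 3.39 ± 0.446 kb was below the 4.19 ± 0.0568 kb of part 1 in 4 of 4 libraries. Each had an exact p of 0.125 in the sign-flip permutation test. Between the percentiles 60 and 90 of column 8, a comparison added after seeing the data, the peaks of part 1 were the wider ones, with 1046.5, 861, 865 and 887 bp in the 4 libraries against 728.5, 704, 663.5 and 704 bp in part 2. The means were 915 ± 88.5 and 700.0 ± 26.9 bp (SD over 4 libraries; exact sign-flip permutation p = 0.125). The top of this band held no peak of part 2, whose highest peaks lay at the percentiles 80.6, 84.2, 86.3 and 86.7. Those of part 1 lay at 89.6, 90.04, 89.7 and 89.7, so heights were not fully matched. Part 1 also held more peaks of at least 1000 bp, with 8, 9, 8 and 9 against 5, 6, 5 and 6.

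The stretch held a region higher than any member and a region that fell on G2. The strongest was chr13:23460569-23461513, with a summit of 164 and 208 times the background on G128 and 242 and 260 on G2, above the highest member in each library. The next were chr13:23537384-23538200, with 85.4 and 120.4 on G128 and 117 and 126 on G2, and chr13:23524416-23525008, with 78.7 and 119 on G128 and 127 and 115 on G2. At chr13:23504214-23504904 the summit was 50.3 and 53.1 on G128 and 30.0 and 25.6 on G2. This region, named because the test called it, had a centred log2 change of -1.23 ± 0.20 (limma adjusted p = 0.000341), lower on G2. It lies before the start of part 2, and its adjusted p was 0.0741 in limma without a trend of the spread with height.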

How the data were processed

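ATAC-seq libraries of NIH3T3 cells were compared, 2 on G128 and 2 on G2, grouped by their titles, and the 4 RNA libraries were not analysed here. The submitters' processing notes name Genrich 0.5, Bowtie2 2.2.5 and SAMtools 1.7 among others, and the build mm9. Roles, settings, the shift of reads for Tn5 and the treatment of duplicates are not stated there. Each deposited list holds 1 library's peaks with a score, a signal and −log10 p-values and q-values as deposited by the authors. These are the authors' own values.

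The deposited −log10 p-values of each list followed a log-normal law over whole numbers of intervals, which gave the summit over the background mean. All 100 lowest distinct values entered the fit, and the recovery was tested on simulated data. Because the spread of that law (0.944) was the same in all libraries, column 8 and the summit over the background rank peaks alike. Peaks sharing at least 1 bp were merged. Libraries were compared by two-sided exact permutation tests over 6 assignments, and the parts with the stretch by sign flips within libraries. Log2 summits in 27768 shared regions, centred on each library's median, were tested with limma 3.58.1 in R 4.3.3, with Benjamini-Hochberg adjustment over all of them. A trend of the spread with height was included after tests on simulated data; the fit without it is among the alternatives. Python 3.11.15 with numpy 2.4.6, pandas 2.3.3 and scipy 1.17.1 was used. Wilson intervals cover counting error only.

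Named regions were, in each part, the 5 shared regions with the highest mean summit, the single-group and called regions, the widest, the 2 largest changes in each direction and the closest and most distant neighbours, and the 3 strongest in the stretch. The members, lists and rules were chosen with earlier results of these data known. Alternatives concerned the number, width and p of peaks, the overlap, the edges of the parts, spacing, scaling, pairing by replicate number and each library left out in turn. Sequences and gene order are from RefSeq (GRCm38.p6), and no coordinate was moved between builds.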

Additional observations from a re-analysis of the deposited data

How the results depend on the processing

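The exact tests of 2 against 2 libraries and of 4 libraries cannot pass 0.05, so these results are values beside their replicate spread. The direction of the difference between G2 and G128 turned for the peak count with equal numbers of peaks per list (0.831), for spacing between peak ends (0.972) and of peaks of at least 250 bp (0.939), and for width between the percentiles 60 and 90 (0.914). Count, 1.03, moved to 1.13 among peaks above their list's median p, and width, 1.06, to 1.17 with equal numbers of peaks and to 1.02 as a mean. The density ratio of the parts to the stretch, 6.73, was 8.88 in the upper part by p and 16.5 with each part widened by 50 kb. It was 0.830 against the occupied end of the stretch, which was cut at its first region while the parts kept their empty margins. The width ratio to the stretch, 1.68, was 1.497 in regions shared by all libraries, 1.48 as a mean and 1.51 between the percentiles 60 and 90. Regions of G2 alone numbered 0, 1 and 0 with equal numbers of peaks, in the upper part by p and at 200 bp or more, and regions of G128 alone 7, 0 and 0, with 4 at an overlap of 50% of both peaks. Without median scaling 5 members were called higher on G2 (26.6% of all shared regions) and the median change was 0.14 (0.34 over all). The width ratio of part 2 to part 1, 1.46, was 0.769 between the percentiles 60 and 90. The cause of these moves was not tested.

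Leaving out 1 library at a time gave ratios of 0.956 to 1.11 for the count, 0.951 to 1.09 for spacing and 1.04 to 1.09 for width, and differences of 0.124 to 0.436 in column 8. Against the stretch it gave 6.49 to 6.95 for density, 1.18 to 1.42 for spacing, 1.65 to 1.71 for width (1.38 to 1.54 for part 2 to part 1) and 0.505 to 0.827 for column 8. G2-only regions numbered 4 to 9 and G128-only regions 2 to 6, calls lower on G2 0 to 3, and the median change -0.23 to -0.12. A lone library of a group was assumed to vary like the other group.

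The replicate numbers are shared by the groups, but the labels give nothing else that pairs the libraries, and the replicate differences correlated at r = 0.0028 over all shared regions. With the number as a replicate block 2 members, at 21.803 and 23.635 Mb, were called lower on G2 (1.38% of all shared regions) and none higher, and the median change stayed at -0.19. The alternatives added after seeing the data were the occupied end of the stretch, distances under 50 kb, peaks of at least 250 bp, the summit over the background, like height (also for part 2 to part 1) and the fit without a trend of the spread, which called none of the 27768 regions at the adjusted p and, unadjusted, 1547 higher and 2408 lower. Summits of the weakest members lie near the lowest in the lists, and the part of depth in this was not tested.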
